A study of Mus musculus with 5 samples.

Results

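A set of 10 genes of the AP-1 and immediate-early response were followed across 5 poly-A RNA-seq libraries of MG5, a mouse microglial cell line. They were chosen by gene symbol from the 45777 genes of the deposited table and comprise the JUN family (Jun, Junb, Jund), the FOS family (Fos, Fosb, Fosl2), the zinc-finger factor gene Egr1, the early response genes Ier2 and Ier3, and the phosphatase gene Dusp1. All 10 were found and all 10 passed the filter on low counts, which kept 15462 genes. With bexarotene 5 of the 10 changed, beside 13.6% of all tested genes. With 6OHA 4 changed, beside 14.8%, and 2 differed between the compounds, beside 6.53%. Each called change among the 10 was under 1.8-fold.

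The study compared bexarotene (BEX), a clinically used agonist of the retinoid X receptor (RXR), with 6OHA, a compound known here only by its code name and described by its makers as another RXR agonist. MG5 cells, labelled WT, were grown in medium that contained conditioned medium of the astrocyte-like A1 line. The groups were BEX at 10 µM for 6 h (3 libraries, replicates 1 to 3), 6OHA at 10 µM for 6 h (1 library, replicate 2) and untreated cells (1 library, replicate 3). The labels give neither a vehicle nor a time for the untreated cells, and nothing in them says that replicates came from separate cultures, so the p-values speak only of the spread among these libraries, which may be technical.

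JUN and FOS proteins are basic leucine zipper factors that pair to form AP-1. JUN proteins can pair with themselves, whereas FOS proteins need a partner, and the pair binds the TPA response element (TRE). Immediate-early genes are switched on by signals such as growth factors, bacterial products and stress without new protein synthesis, and many of their mRNAs are short-lived. In microglia and macrophages AP-1 acts with the lineage factor PU.1 at enhancers of inflammatory genes.

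Libraries held 33823181 to 40545305 counts. The 12 microglial markers were all detected and summed to 7203 to 7418 CPM (counts scaled to library size) per library. Of these 12, 5 changed with BEX, 4 with 6OHA and 2 differed between the compounds. The shares over all tested genes were 13.6%, 14.8% and 6.53%. Markers of other brain cells were low: 8 astrocyte markers summed to 24.0 CPM in untreated, 18.04 to 20.51 in BEX and 16.0 in 6OHA cells, with Aqp4 at 0. The 6 neuronal markers summed to 13.5, 8.73 to 9.62 and 9.85 CPM, with Rbfox3 and Nefl at 0. The 6 oligodendrocyte markers summed to 76.9, 92.9 to 95.1 and 95.5 CPM, with Mog, Olig1, Olig2 and Sox10 at 0, and the 6 markers of fibroblasts and endothelium to 11.1, 9.37 to 11.2 and 9.36 CPM, with Col1a1, Col1a2 and Col3a1 at 0. With BEX 1 of 3 tested astrocyte, 2 of 2 neuronal, 1 of 2 oligodendrocyte and 0 of 2 fibroblast and endothelium markers changed. With 6OHA 1, 0, 1 and 0 did so. The part of these shifts in the results below was not tested. In bulk RNA, fewer cells with a transcript and less of it per cell cannot be told apart.

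The 250 bases before the start site of 4 members are shown because 3 of them hold an AP-1 or CREB type motif and the remaining one, that of Ier3, belongs to the gene that rose with BEX. Sequences are from RefSeq promoters on GRCm38.p6, read 5′ to 3′ on the strand of the gene, with matched motifs in capitals. Jun is shown from chr4:95052223-95052472 (minus strand), Dusp1 from chr17:26508473-26508722 (minus strand), Fos from chr12:85473640-85473889 (plus strand) and Ier3 from chr17:35821463-35821712 (plus strand).
Jun: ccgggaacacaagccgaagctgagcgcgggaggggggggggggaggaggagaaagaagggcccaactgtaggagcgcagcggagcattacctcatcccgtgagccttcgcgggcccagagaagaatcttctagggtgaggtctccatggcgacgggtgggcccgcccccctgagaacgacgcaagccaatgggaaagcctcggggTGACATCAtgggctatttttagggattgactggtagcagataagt
Dusp1: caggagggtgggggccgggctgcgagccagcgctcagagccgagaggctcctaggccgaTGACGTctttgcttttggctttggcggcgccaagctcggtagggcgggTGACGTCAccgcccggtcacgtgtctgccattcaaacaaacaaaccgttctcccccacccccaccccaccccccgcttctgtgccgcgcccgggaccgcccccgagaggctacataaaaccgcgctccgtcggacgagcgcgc
Fos: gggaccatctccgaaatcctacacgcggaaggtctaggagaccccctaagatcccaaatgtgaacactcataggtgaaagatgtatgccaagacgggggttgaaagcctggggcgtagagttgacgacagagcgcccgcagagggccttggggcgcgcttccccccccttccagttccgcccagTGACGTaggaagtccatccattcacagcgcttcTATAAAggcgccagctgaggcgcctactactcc
Ier3: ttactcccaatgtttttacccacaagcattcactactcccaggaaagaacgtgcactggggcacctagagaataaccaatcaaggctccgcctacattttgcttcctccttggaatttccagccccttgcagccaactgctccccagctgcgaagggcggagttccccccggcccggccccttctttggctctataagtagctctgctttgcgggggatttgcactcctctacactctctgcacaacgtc

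The capitals in Jun mark TGACATCA, 45 bases before the start, a variant of the TRE that JUN with ATF2 is known to bind at this promoter. That 8-mer was present in 2.93% of 32851 promoters of the same length, on either strand. The capitals in Dusp1 mark the full cyclic AMP response element TGACGTCA, 143 bases before the start, and its core TGACGT at 191 bases. The full element was present in 1.55% and the core, which it contains, in 6.47% of promoters. The capitals in Fos mark a core at 66 bases and the TATA box TATAAA at 33 bases, which was sought on the plus strand alone and present in 7.59% of promoters. A relaxed form of the TRE, TGANTCA with any base at N, was in 6.75% of promoters and in 0 of the 8 member promoters in the table. The CArG box of serum response factor was in 1.47% and in 0 of 8. The promoters of Ier2 and Egr1 were not among these 8 and were not searched. Sites further upstream were not sought, so neither 0 shows that these genes lack such sites. A match is a description of the letters in this window and no more.

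Levels between genes were compared in the deposited TPM, which scale for transcript length as well as library size. In the untreated library Jun led at 95.3 TPM, next to Ier3 at 91.5 and Junb at 70.2. Ier2 at 41.3, Jund at 35.6 and Fosl2 at 28.6 TPM followed, and Dusp1 at 15.1, Egr1 at 14.6, Fos at 5.59 and Fosb at 0.308 TPM closed the order. With BEX, Ier3 led at 144 ± 1.98 TPM (SD, n = 3), above Junb at 78.9 ± 3.59 and Jun at 71.9 ± 1.96, and the range of each was separate from the next. Fosl2 at 32.0 ± 2.25, Ier2 at 28.8 ± 2.17 and Jund at 25.6 ± 2.06 TPM were neighbours whose ranges overlapped. With 6OHA, Ier3 led at 99.0 TPM, before Jun at 63.3 and Junb at 59.7. Neighbours in the untreated and 6OHA orders have no spread of their own.

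**Figure D1:**
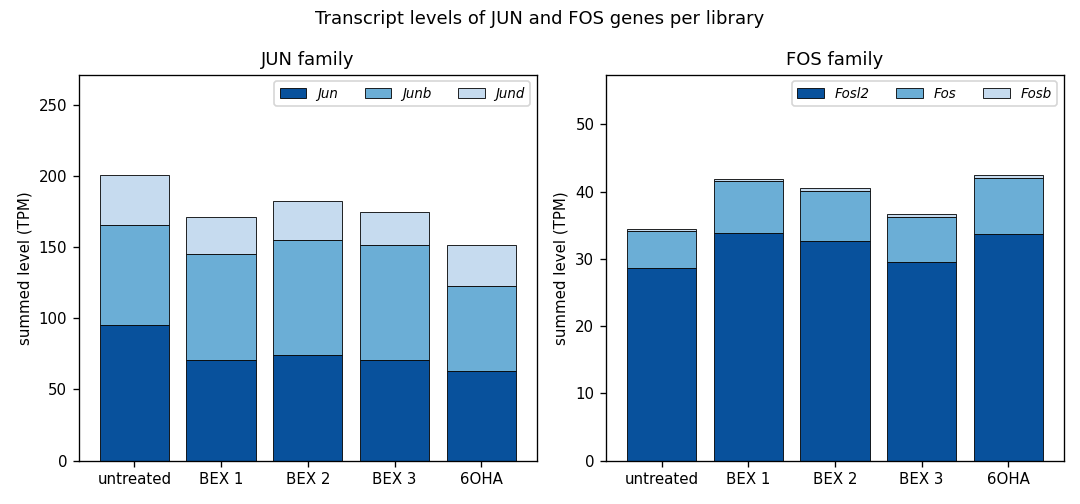
Stacked bars give the summed TPM of the 3 JUN genes (left) and of the 3 FOS genes (right) in each of the 5 libraries, on linear axes that start at 0 and differ in scale. The JUN sum was highest in the untreated library at 201 TPM and lowest in 6OHA at 151 TPM, while the FOS sum was lowest in the untreated library at 34.5 TPM.

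The balance of the AP-1 families differed between libraries. The JUN sum was 201 TPM untreated, 171, 182 and 175 TPM in BEX 1 to 3 and 151 TPM with 6OHA. The FOS sum was 34.5, then 41.8, 40.6 and 36.7, then 42.5 TPM. JUN transcripts thus exceeded FOS transcripts 5.83-fold untreated, 4.45 ± 0.337-fold (SD, n = 3) with BEX and 3.56-fold with 6OHA, and the lone libraries lay on either side of the BEX range of 4.10 to 4.77. Within the JUN sum, Jun itself made up 47.4% untreated, 40.7% with BEX and 41.8% with 6OHA, and Junb 34.9%, 44.7% and 39.4%. Fosl2 made up 82.9%, 80.6% and 79.3% of the FOS sum. These sums and ratios were not tested, and no offsets for GC content were applied to these TPM. Junb and Jund have a GC content of 62.6% and 67.1%. Their log2 changes with 6OHA against untreated were -0.29 and -0.38. In a fit with offsets for GC content and length, described below, they were 0.08 and 0.10. The part of GC content in the ratios was not tested.

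**Figure D2:**
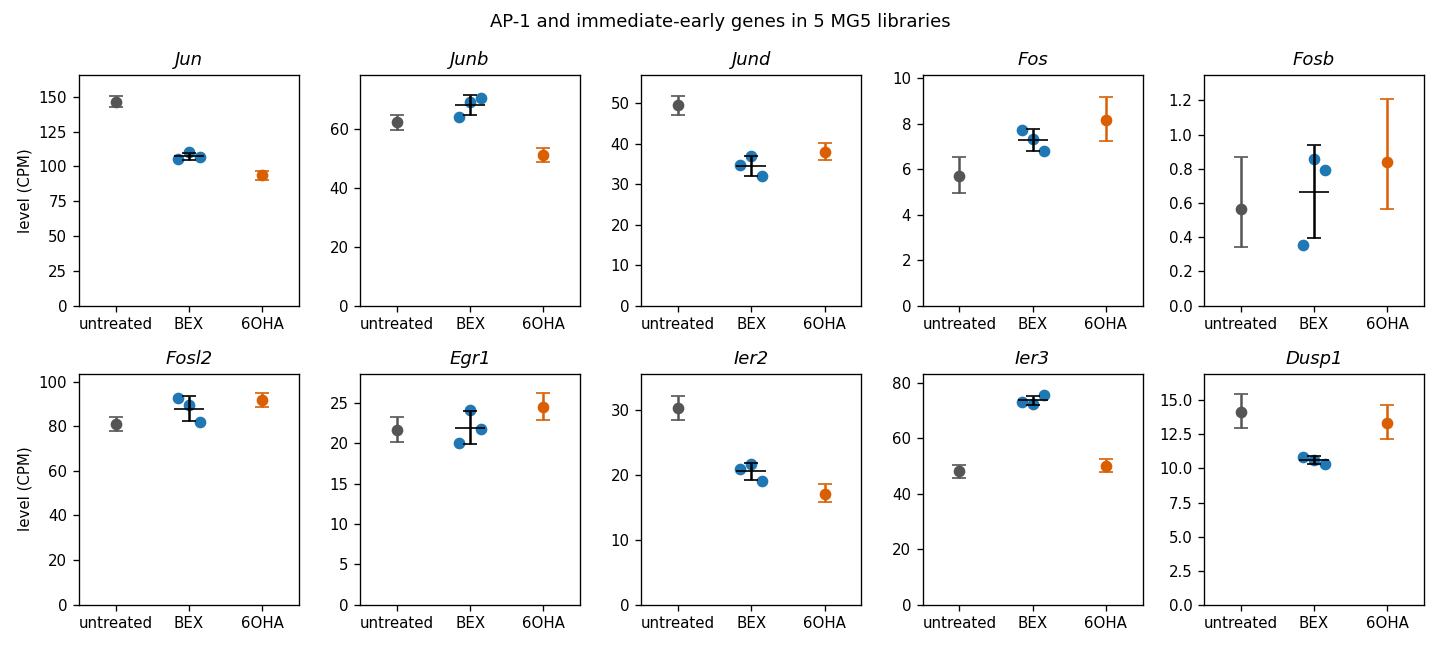
Points give the CPM of each of the 10 genes in each library, 1 panel per gene with its own linear axis from 0. Black bars are the mean ± SD of the 3 BEX libraries, and bars on the lone libraries are exact 95% Poisson intervals, which cover counting error only. The untreated point lies above all 3 BEX points for Jun, Jund, Ier2 and Dusp1 and below them for Junb, Fos, Fosl2 and Ier3.

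Jun encodes the JUN subunit of AP-1, the member of its family that drives proliferation and stress responses. It stood at 146.5 CPM untreated, at 105.3, 110.1 and 106.6 CPM in BEX 1 to 3 and at 93.7 CPM with 6OHA. The untreated library was the highest and the 6OHA library the lowest, both clear of the BEX range. Jun fell by 0.45 ± 0.05 (log2, SE) with BEX, to 0.733 of the untreated level, with an adjusted p of 6.97e-05 (quasi-likelihood test of edgeR, Benjamini-Hochberg over all tested genes, as for each adjusted p that follows). With 6OHA it fell by 0.65 ± 0.07, to 0.639 (adjusted p = 4.45e-05). Both calls held under every alternative run, 15 for BEX with adjusted p of 1e-08 to 0.0145 and 14 for 6OHA with 5.05e-11 to 0.0131. Between the compounds the log2 difference, 6OHA minus BEX, was -0.20 (95% interval -0.32 to -0.08, adjusted p = 0.0558), outside the threshold. It passed in 5 of 15 alternatives, with library totals only (0.0463), the legacy fit (0.0441), genes with a mean of 20 or more counts (0.0382), without BEX replicate 2 (0.0388) and without BEX replicate 3 (0.0416), over a range of 0.0382 to 1. The upper end came from the test at a minimum fold of 1.2, which asks more than a difference from 0. With offsets for GC content and length, an alternative chosen after seeing the data, it was -0.07. Jun lies at chr4:95049036-95052222, and its antisense gene Junos, named here after its values were seen, overlaps it by 689 bases. Whether strand was used in counting is not given in the sources used here, so reads in the overlap may belong to either. Junos stood at 16.1 CPM untreated, 13.2 ± 0.726 with BEX (SD, n = 3) and 12.6 with 6OHA, with no call in any comparison.

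Jund encodes JUND, which in many cells is present at rest and slows proliferation. Its level was 49.4 CPM untreated, 34.6, 36.9 and 31.9 CPM in the BEX libraries and 38.0 CPM with 6OHA. The untreated library was again the highest, and 6OHA lay just above the BEX range. Jund fell with BEX by 0.52 ± 0.08 (log2, SE, adjusted p = 0.000844). Tests on log2(TPM + 1) and log2(TPM + 0.1) put the adjusted p at 0.0594 and 0.0556, the highest of a range from 3.25e-07, and the GC and length offsets reduced the change to -0.31 (adjusted p = 0.0157). With 6OHA it fell by 0.38 ± 0.10 (adjusted p = 0.0252), a call held in 8 of 14 alternatives (adjusted p of 0.00187 to 0.589). It turned to a log2 difference of 0.10 (adjusted p = 0.589) under those offsets. At 67.1%, Jund has the highest GC content of the 10 genes. It lies at chr8:70697739-70700616 and is overlapped by 919 bases of the gene Gm11175, for which no value was used here.

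Junb encodes JUNB, which can replace or oppose JUN at AP-1 sites. It stood at 62.3 CPM untreated, 64.2, 69.3 and 70.7 CPM with BEX and 51.1 CPM with 6OHA. BEX libraries were highest and 6OHA lowest. The BEX difference from untreated was 0.13 ± 0.07 (log2, SE, adjusted p = 0.262) and was called only with the GC and length offsets, at 0.25 (adjusted p = 0.0181, range 0.0181 to 1). Junb fell with 6OHA by 0.29 ± 0.09 (adjusted p = 0.0445) against untreated, a call that held in 7 of 14 alternatives (0.00921 to 0.789), and the offsets turned it to 0.08 (adjusted p = 0.62). Against BEX, 6OHA cells had less Junb, at -0.42 ± 0.07 (adjusted p = 0.00532), in 10 of 15 alternatives (9.1e-05 to 0.388), but the offsets reduced this to -0.17 (adjusted p = 0.18). The GC content of Junb is 62.6%.

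The FOS genes showed no call in any of the 3 comparisons, by edgeR or under any alternative that gave a value. DESeq2 gave no adjusted p for Fos and Fosb in the comparisons of 6OHA. Fos, the classical serum-induced partner of JUN, stood at 5.71 CPM untreated, 7.73, 7.30 and 6.79 CPM with BEX and 8.17 CPM with 6OHA. Both treated groups lay above the untreated library, with log2 differences of 0.34 (95% interval -0.001 to 0.69, adjusted p = 0.179) for BEX and 0.52 (0.11 to 0.92, adjusted p = 0.0853) for 6OHA. Unadjusted p-values of the edgeR test were 0.0469 and 0.0164. The intervals were computed apart from that test, so the BEX interval could just hold 0. Fosl2, the FOS family gene with the most transcripts here by TPM, which encodes FRA2, was at 81.0 CPM untreated, 92.5, 89.4 and 81.9 CPM with BEX and 91.8 CPM with 6OHA. Its untreated library was the lowest and its intervals against untreated were -0.04 to 0.27 for BEX and -0.004 to 0.37 for 6OHA on the log2 scale. Fosb rested on 20 counts untreated, 12, 31 and 32 counts with BEX and 29 counts with 6OHA. The BEX libraries spanned both lone libraries, and the log2 interval for BEX, -0.99 to 1.53, held changes of either sign, so none was detectable at this depth.

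**Figure D3:**
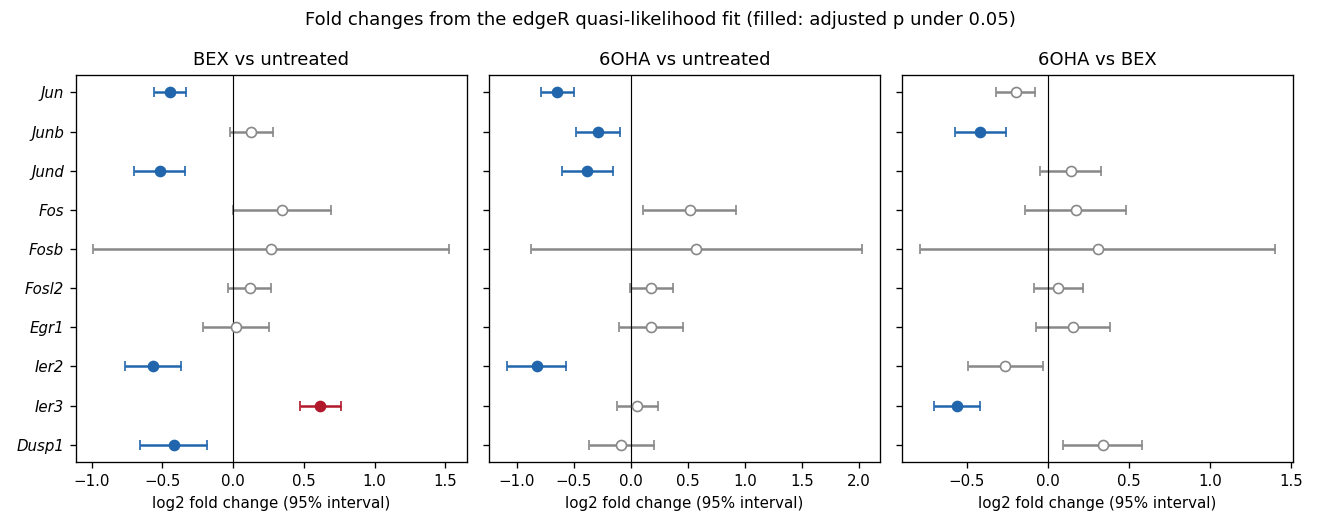
Points give the log2 fold change of each gene in the 3 comparisons from the edgeR fit, with 95% intervals as horizontal lines and points filled where the adjusted p was under 0.05. The 3 log2 axes differ in range, and a vertical line marks 0. Ier3 lies to the right of 0 with BEX and near 0 with 6OHA, while Jun, Jund and Ier2 lie to the left with both compounds.

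Ier3 encodes a stress-induced protein that affects cell survival and ERK signalling. It stood at 48.1 CPM untreated, 73.1, 72.6 and 75.7 CPM with BEX and 50.1 CPM with 6OHA. The BEX libraries were clear of both lone libraries, which lay close together. Ier3 rose 1.53-fold with BEX, by 0.62 ± 0.07 (log2, SE, adjusted p = 3.04e-05), in all 15 alternatives (0.60 to 0.70). Against untreated the 6OHA difference was 0.06, with an interval of -0.12 to 0.24 (adjusted p = 0.712). The compounds themselves differed, with 6OHA below BEX by -0.56 ± 0.07 (adjusted p = 0.000374), in all 15 alternatives (-0.57 to -0.48). Both compounds were given at the same dose for the same time, but 6OHA had 1 library.

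Ier2 encodes a nuclear protein that takes part in transcriptional control. Its level was 30.3 CPM untreated, 21.0, 21.7 and 19.0 CPM with BEX and 17.1 CPM with 6OHA. The untreated library stood highest and 6OHA lowest, outside the BEX range. Ier2 fell by 0.56 ± 0.09 with BEX (log2, SE, adjusted p = 0.00106) and by 0.82 ± 0.12 with 6OHA (adjusted p = 0.000666), to 0.564 of the untreated level. All 15 and all 14 alternatives kept these calls, the 6OHA value moving between -0.84 and -0.49. The difference between the compounds, -0.26 (95% interval -0.49 to -0.03), did not pass (adjusted p = 0.177) and was -0.04 under the GC and length offsets.

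Dusp1 encodes the phosphatase MKP-1, which switches off the stress kinases p38 and JNK, the latter of which activates JUN. It was at 14.2 CPM untreated, 10.9, 10.6 and 10.3 CPM with BEX and 13.4 CPM with 6OHA. The BEX libraries lay below both lone libraries. Dusp1 fell with BEX by 0.42 ± 0.11 (log2, SE, adjusted p = 0.0232), the weakest of the BEX calls. It was lost in 5 of 15 alternatives, with adjusted p of 0.2 in DESeq2, 0.099 and 0.0875 on TPM, 0.0632 without the filter and 0.387 against a minimum fold of 1.2, where the lowest over the alternatives was 0.0191. The 6OHA difference from untreated was -0.08 (interval -0.37 to 0.20), and 6OHA minus BEX was 0.34 (interval 0.10 to 0.58, adjusted p = 0.103). Egr1, a zinc-finger factor induced through ERK and serum response factor, stood at 21.7 CPM untreated, 19.99, 24.15 and 21.73 CPM with BEX and 24.5 CPM with 6OHA. The untreated library fell within the BEX range, and the log2 interval for BEX was -0.21 to 0.25.

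By direction, 1 of the 10 genes rose and 4 fell with BEX, where 7.55% of all tested genes rose and 6.03% fell. With 6OHA 0 rose and 4 fell, beside 7.59% and 7.19%. Between the compounds 0 were higher and 2 lower in 6OHA, beside 2.4% and 4.13%. With the GC and length offsets the members called were 2 higher and 4 lower, 0 higher and 2 lower, and 2 higher and 1 lower in these comparisons. Over all 14262 genes with these offsets, 1910, 1416 and 870 were called, of which 48.6%, 55.4% and 53.8% were higher. The median log2 change of the members was 0.07 with BEX, -0.01 with 6OHA and 0.10 for 6OHA minus BEX, beside medians over all tested genes within 0.01 of 0. Unadjusted p-values fell under 0.05 for 6, 5 and 5 members, beside 26.7%, 28.4% and 20.5% of all tested genes. The first pair of comparisons shares the untreated library, and that library is not replicated, so any deviation of its own enters both.

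How far such small changes stand from the spread can be read from the BEX libraries. Their spread for Jun was 2.32% (coefficient of variation) beside 1.59% from counting alone, for Ier3 2.29% beside 1.92% and for Dusp1 2.71% beside 5.06%. Junb at 5.05% beside 1.99%, Fosl2 at 6.19% beside 1.76% and Ier2 at 6.64% beside 3.64% varied more. So did Jund at 7.25% beside 2.81% and Egr1 at 9.5% beside 3.51%. Fos varied by 6.45%, close to the 6.12% from counting alone. Fosb, with few counts, varied by 40.9% beside 20%. The log2 distance from the lowest to the highest BEX library was 0.06 for Jun and Ier3 and 0.27 for Egr1, against a median of 0.11 and a 95th percentile of 0.32 over the 10208 genes averaging 200 or more counts. Egr1, Jund, Ier2, Fos, Fosl2 and Junb thus lay above that median and Jun, Ier3 and Dusp1 below it. The untreated library fell outside the BEX range for 8 of the 10 genes, as it did for 67.6% of tested genes. The 6OHA library did so for 8 of the 10 too, against 64.9%.

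**Figure D4:**
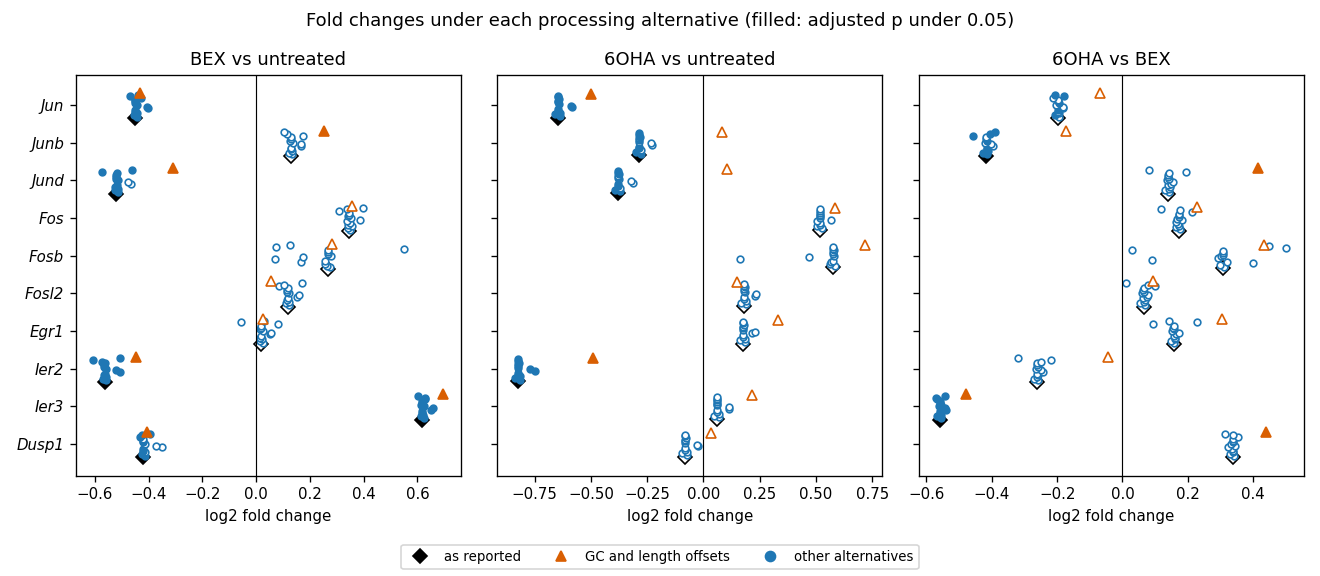
Each row gives the log2 fold change of a gene as reported (diamond), with offsets for GC content and length (triangle) and under the other alternatives (circles), filled where the adjusted p was under 0.05, with 1 panel per comparison and axes that differ in range. In both comparisons with untreated cells Jun and Ier2 stay filled throughout, as does Ier3 with BEX and between the compounds, whereas the triangles of Junb and Jund in 6OHA against untreated cross 0.

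The fold changes of all genes moved with GC content, and the members span 51.9% (Fos) to 67.1% (Jund). Among genes averaging 200 or more counts, the 278 with a GC content of 60% or more had a median log2 change of -0.12 with BEX, -0.32 with 6OHA and -0.21 for 6OHA minus BEX. The 2834 genes under 45% had medians of 0.07, 0.12 and 0.06. Jund, Junb and Ier2 (60.9%) belong to the upper class, whose median GC content was 61.3%, so Jund lay far out in it. The offsets were fitted to each library. With lone libraries, a treatment effect that follows GC content and a technical one cannot be told apart, and the offsets may remove either. Ier2 kept its fall under the offsets, at -0.49 with 6OHA, and Jun (55.5%) kept its own, at -0.50. Under the same offsets Jund and Dusp1 were higher in 6OHA than in BEX, at 0.42 (adjusted p = 0.00843) and 0.44 (adjusted p = 0.0356), calls made in none of the other 14 alternatives, where the adjusted p reached 1.

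**Figure D5:**
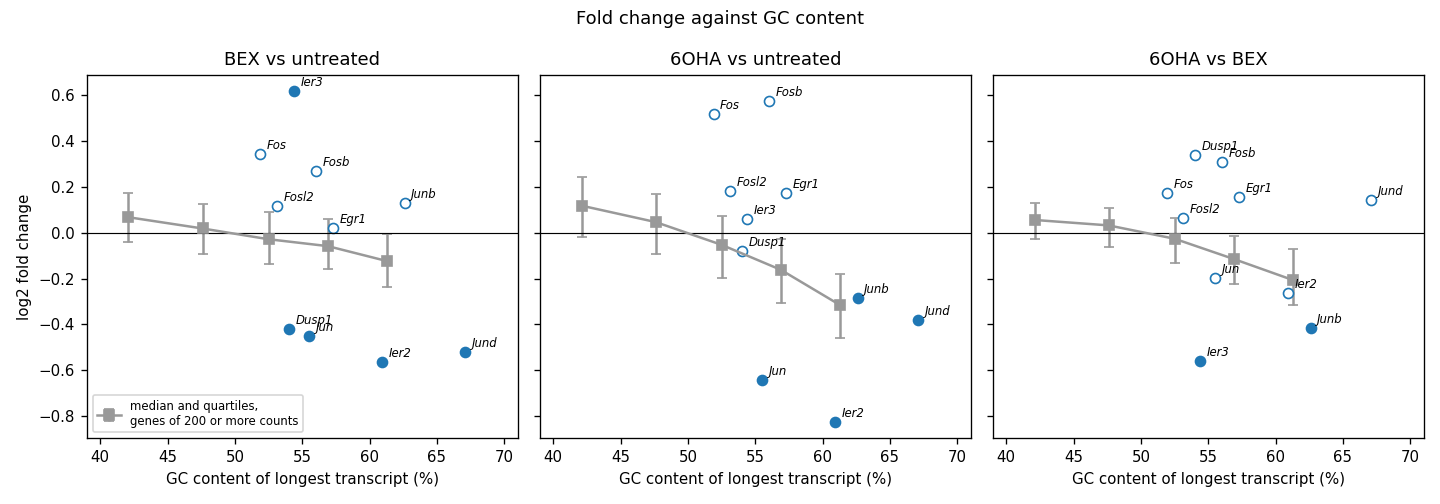
Points give the log2 fold change of each of the 10 genes against its GC content in percent in the 3 comparisons, and the line joins the medians of all genes averaging 200 or more counts in classes of GC content, with their quartiles as bars. Filled points had an adjusted p under 0.05. The line slopes downward in each panel, and Ier2 and Jun lie below it in both comparisons with untreated cells.

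Of the other AP-1 subunits and partners 12 of 13 were tested. With BEX 5 rose and 0 fell, with a median log2 change of 0.16, and with 6OHA 4 rose and 1 fell, with a median of 0.15. Over all tested genes 7.55% rose and 6.03% fell with BEX, and 7.59% rose and 7.19% fell with 6OHA. Maf, which encodes a basic leucine zipper factor, rose by 0.40 ± 0.06 (log2, SE) with BEX and 0.34 ± 0.08 with 6OHA, and the AP-1 repressor gene Jdp2 by 0.48 ± 0.09 and 0.35 ± 0.11, although the 6OHA call for Jdp2 held in 6 of 14 alternatives. Fosl1, the remaining FOS family gene, had 0 to 2 counts per library and was not tested.

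The list of other immediate-early genes held 31 symbols, some of them older names of listed genes. Of these, 29 were among the deposited genes and 26 were tested. With BEX 3 rose and 6 fell (median -0.12), and with 6OHA 2 rose and 4 fell (median -0.15). The shares over all tested genes were 7.55% and 6.03% with BEX and 7.59% and 7.19% with 6OHA. Klf4, a Krüppel-like factor, fell by 0.74 ± 0.10 and 0.92 ± 0.13, from 32.6 CPM untreated to 19.4 CPM with BEX and 17.2 CPM with 6OHA. Ier5, a relative of Ier2, fell by 0.67 ± 0.09 and 0.62 ± 0.11. Plk2, a polo-like kinase, rose by 0.56 ± 0.06 and 0.39 ± 0.08. Klf10, a TGF-β-inducible repressor, rose by 0.52 ± 0.08 with 6OHA and was higher there than in BEX by 0.27 ± 0.06, a difference held in 11 of 15 alternatives.

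Upstream of AP-1, 21 MAP kinase and SRF-TCF genes were tested. With BEX 2 rose and 3 fell, and with 6OHA 4 rose and 4 fell. Shares over all tested genes were 7.55% and 6.03% with BEX and 7.59% and 7.19% with 6OHA. Map2k3 and Map2k6 encode kinases that activate p38. Map2k3 fell by 0.58 ± 0.06 with BEX and 0.43 ± 0.07 with 6OHA, and Map2k6 by 0.61 ± 0.11 and 0.72 ± 0.14, calls that the tests on TPM lost for Map2k6. Elk1, which encodes a ternary complex factor that acts with serum response factor at early gene promoters, rose by 0.36 ± 0.08 and 0.44 ± 0.10. Of 14 feedback inhibitors, 3 rose and 2 fell with BEX, and 2 rose and 3 fell with 6OHA, beside the same shares. Dusp6, the ERK phosphatase, rose from 170.3 CPM to 238.9 and 250.9 CPM, by 0.49 ± 0.05 and 0.56 ± 0.06. Dusp4 fell by 0.60 ± 0.08 with BEX and by 0.40 ± 0.10 with 6OHA, the latter a call held in 8 of 14 alternatives and at -0.23 under the GC and length offsets (adjusted p = 0.174, the highest of any alternative being 0.36).

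Of 20 genes known as AP-1 targets in other systems 18 were tested. With BEX 3 rose and 9 fell, with a median log2 change of -0.29, and with 6OHA 3 rose and 8 fell, with a median of -0.32. Among all tested genes 7.55% rose and 6.03% fell with BEX, and 7.59% rose and 7.19% fell with 6OHA. The metalloproteinase genes Mmp12 and Mmp13 fell by 0.61 ± 0.04 and 0.78 ± 0.06 with BEX and by 0.44 ± 0.05 and 0.63 ± 0.08 with 6OHA. Plaur, the urokinase receptor gene, fell by 0.61 ± 0.05 and 0.76 ± 0.07. In the opposite direction, Hbegf, an EGF-like growth factor gene, rose 5.15-fold with BEX and 4.97-fold with 6OHA, from 5.88 CPM to 30.3 and 29.2 CPM, and Ccl2, a monocyte chemokine gene, rose by 0.55 ± 0.04 and 0.60 ± 0.04. The list thus held genes that moved both ways, and Hbegf changed far more than any of the 10 members. These genes have regulators other than AP-1, and their relation to Jun levels was not tested.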

How the data were processed

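Poly-A RNA of 5 MG5 libraries (1 untreated, 3 BEX, 1 6OHA) was sequenced from stranded libraries, per the labels' protocols. The authors deposited whole-number read counts, FPKM and TPM per gene for mm10, 1 column per library. The submitters' processing notes list HISAT2 2.1.0, StringTie 2.1.3b, Bowtie2, Trimmomatic 0.38, bcl2fastq 2.20.0 and SAMtools 1.9. Which step each served, and whether counting used strand, is not given in the sources used here. Main tests all ran on the deposited counts, the deposited TPM served for levels and 2 alternatives, and the deposited FPKM entered no test. A count of 0 allows up to 0.074 to 0.0887 CPM (3 counts, counting error only).

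All 5 libraries entered 1 edgeR 4.0.16 quasi-likelihood fit (R 4.3.3, TMM factors of 0.9942 to 1.004). Genes were kept by filterByExpr (minimum count 10, minimum total 15), tests were two-sided, and p-values were Benjamini-Hochberg adjusted over 15462 genes at 0.05. The spread came from the 3 BEX libraries (2 residual and 10.6 prior degrees of freedom), and the lone libraries were assumed to vary like them. Standard errors and intervals came from fitted means and dispersions, apart from the test, so an interval and its p-value can differ near the threshold. The code was tested on simulated data. Alternatives were RLE size factors, library totals only, DESeq2 1.42.0, limma 3.58.1 (voom, and trend on both TPM scales), the legacy quasi-likelihood fit, no filter, a mean of at least 20 counts, only the 2 groups compared, a minimum fold of 1.2 and leaving out each BEX library. The test at a minimum fold of 1.2 asked a stricter question than the others, which an estimated change under 1.2-fold could hardly pass. GC and length offsets, added after seeing the data, covered 14262 genes. Positions and promoters came from RefSeq GRCm38.p6. Overlaps, and the GC content and length of the longest transcript of each gene, came from GENCODE on GRCm38. The members and the lists were chosen with earlier results of these data known. Beside the 10 members, up to 5 called genes with the smallest adjusted p per list and comparison could be named. The other untreated and 6OHA replicates were not analysed here. The values of 1 gene of the lists are not reported here.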

Additional observations from a re-analysis of the deposited data

How the results depend on the processing

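No paired analysis was possible because BEX and 6OHA share only replicate number 2, and BEX and untreated only replicate number 3. Over the members' fold changes in all alternatives, 401 kept their direction and side of the threshold, 8 newly passed, 23 no longer passed and 4 reversed. The reversals were Egr1 in BEX (-0.055 without BEX replicate 2 and 0.083 without BEX replicate 1) and, under GC and length offsets, Junb (0.082), Jund (0.104) and Dusp1 (0.034) in 6OHA against untreated. Of the members, 3 instead of 5 were called for BEX on log2(TPM + 1) and log2(TPM + 0.1). For 6OHA against untreated, 2 instead of 4 were called with DESeq2, on both TPM scales, without the filter, at a minimum fold of 1.2 and with the offsets. For 6OHA against BEX, 1 instead of 2 was called on both TPM scales, without the filter and at the minimum fold. Leaving out each BEX library gave 5 to 5, 4 to 4 and 2 to 3 members. These runs could hardly move the fold changes of 6OHA against untreated, which hold no BEX library, and altered mainly the spread used.

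The genes called in the other lists together numbered 39, 39 and 14. For BEX they fell to 23 on both TPM scales and 17 at the minimum fold. For 6OHA against untreated they fell to 20 with TPM + 1, 21 with TPM + 0.1 and 13 at the minimum fold. For 6OHA against BEX they fell to 8 with limma-voom, 0 with TPM + 1, 2 with TPM + 0.1, 2 without the filter and 0 at the minimum fold. Leaving out each BEX library gave 34 to 48, 39 to 43 and 10 to 18. Among named genes, the minimum fold ended the calls of Maf, Jdp2 and Elk1 with both compounds, of Plk2, Map2k3, Dusp4 and Hsp90aa1 with 6OHA, of Hsph1 with BEX and of Hspd1 with both. Both TPM scales ended those of Ier5, Dusp4 and Jdp2 with 6OHA, and log2(TPM + 1) that of Maf with 6OHA. The causes were not tested.

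Over all genes, the calls of 2101, 2285 and 1010 became 908, 785 and 85 with TPM + 1, 975, 869 and 144 with TPM + 0.1, 1216, 1134 and 190 without the filter, and 536, 438 and 102 at the minimum fold. The offsets gave 1416 for 6OHA against untreated, and leaving out BEX replicate 2 gave 1660 for 6OHA against BEX. The higher share of calls was 55.6%, 51.3% and 36.7%, beside 67.7%, 62.2% and 24.7% with TPM + 1, 70.1%, 62.4% and 25.7% with TPM + 0.1, and 53.8% for 6OHA against BEX with the offsets. The unreplicated untreated and 6OHA libraries limit every comparison, and depth limits Fosb.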

Other observations

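Of 10 heat shock genes, which encode chaperones and their partners, 9 were tested. With BEX 3 rose and 0 fell, and with 6OHA 3 rose and 1 fell, while the median log2 changes of the list were -0.03 and -0.08. Among all tested genes the shares were 7.55% and 6.03% with BEX and 7.59% and 7.19% with 6OHA. The genes that rose were Hsph1, Hspd1 and Hsp90aa1 with either compound. Hsph1 went from 54.4 CPM untreated to 71.9 CPM with BEX and 86.6 CPM with 6OHA, rises of 0.40 ± 0.07 and 0.67 ± 0.08 (log2, SE). Hspd1 rose by 0.23 ± 0.04 and 0.26 ± 0.05, and Hsp90aa1 by 0.16 ± 0.05 and 0.26 ± 0.06, of which the BEX call was lost without BEX replicate 1, without the filter, at a minimum fold of 1.2 and with GC and length offsets. The stress-inducible Hspa1b fell with 6OHA by 0.96 ± 0.28, a call held in 7 of 13 alternatives, from 4.95 CPM untreated to 2.55 CPM, beside 3.30, 4.08 and 3.10 CPM with BEX. Its near-identical copy Hspa1a, with which reads may be shared, stood at 3.63 CPM untreated, 2.42, 3.06 and 2.83 CPM with BEX and 2.90 CPM with 6OHA.

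The genes whose pattern over the 5 libraries lay nearest to that of Jun, by the Euclidean distance of mean-centred log2 CPM among 13316 genes averaging 20 or more counts, were Romo1 (0.0596), Hdac5 (0.0629) and Sh2d3c (0.0778). Jun itself lay 0.479 from a flat pattern. For Fos they were Gm14440 (0.0322), Kitl (0.0402) and Zfp968 (0.0442), for Egr1 Aspm (0.0574), Zfp382 (0.0652) and Arhgap35 (0.0761), and for Dusp1 Rpl13-ps3 (0.0477), Gm9917 (0.0482) and 5830432E09Rik (0.0544). Gm9917 stood at only 0.595 to 0.843 CPM and Rpl13-ps3 at 1.85 to 2.56 CPM, where counting error is large beside these distances. With 5 libraries, 3 of them of 1 group, many genes lie close to any pattern.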
